A study of Rattus norvegicus with 2 samples.

Results

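Among the 43391 transcript models assembled from rat femur RNA, 9873 carried the comparison class j, which is given to isoforms that share at least 1 splice junction with a reference transcript without matching it over the full chain. They are called new-junction transcripts here. The 569 described here were recorded in both of the 2 assemblies that were merged, and the other 9304 were recorded in one assembly only. The 569 came from 529 genes.

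The study compared the femurs of female Wistar rats of wild-type genotype after bilateral ovariectomy (OVX), which removes the ovaries and is used as a model of osteoporosis after the menopause, with those after a sham operation (SHAM). The labels used here cover 1 OVX sample and 1 SHAM sample of total RNA, both at week 16, and also name them Old_2 and Young_1. The study's methods give a shorter feeding time before the femurs were taken than the labels, and which of them holds for these samples is not known here. The files say neither which sample nor which group either assembly came from, so presence in both assemblies is a record of repeated assembly and not of a response to ovariectomy. They hold positions and attributes of transcript models with no count, coverage or expression value, so the depth is unknown, no level can be given and OVX was not compared with SHAM.

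Alternative splicing joins the exons of one gene in more than one way. An exon can be skipped, the donor at the start of an intron or the acceptor at its end can shift, and a gene can start from another first exon or finish with another last exon. Neighbouring acceptors that lie 3 bases apart, often called NAGNAG acceptors, add or remove 1 codon where they lie in coding sequence, and leave the reading frame as it was. Femur tissue holds bone cells together with marrow, in which red cells, neutrophils and B cells form, and adhering muscle. In this annotation 20 of 21 listed genes of bone matrix, osteoblasts and osteocytes were found, 9 of 14 erythroid genes, 11 of 14 neutrophil and myeloid genes, 6 of 9 B lymphoid genes, 7 of 14 osteoclast genes and 13 of 26 skeletal muscle genes. Genes were looked up by symbol, so a gene assembled under a name that matched no symbol counts as not found. An assembled model shows that a gene was assembled and says nothing of its level.

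Alas2 and Hk1 had members that shared later introns and differed in their first exon. For these genes the start regions listed by RefSeq on build GRCr8 are shown, each from 250 bases before to 50 bases after a listed start, 5′ to 3′ on the strand of the gene. Capitals mark AGATAA, a form of the site bound by the GATA factors that drive red cell genes. Both strands were searched. The Alas2 window lies at chrX:22895200-22895499 on the plus strand, and the Hk1 windows lie at chr20:30842023-30842322 and chr20:30874765-30875064 on the minus strand.
Alas2: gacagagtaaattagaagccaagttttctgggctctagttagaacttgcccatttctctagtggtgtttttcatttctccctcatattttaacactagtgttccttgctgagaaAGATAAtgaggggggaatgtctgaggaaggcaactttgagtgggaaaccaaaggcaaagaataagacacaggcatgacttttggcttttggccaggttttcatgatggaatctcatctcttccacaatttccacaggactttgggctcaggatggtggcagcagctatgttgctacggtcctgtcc
Hk1, start with the lower position: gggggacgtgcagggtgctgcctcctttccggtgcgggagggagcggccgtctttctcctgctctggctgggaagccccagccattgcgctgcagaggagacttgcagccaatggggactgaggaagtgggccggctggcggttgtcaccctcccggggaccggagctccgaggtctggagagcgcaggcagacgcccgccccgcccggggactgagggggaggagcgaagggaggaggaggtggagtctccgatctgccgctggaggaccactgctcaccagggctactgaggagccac
Hk1, start with the higher position: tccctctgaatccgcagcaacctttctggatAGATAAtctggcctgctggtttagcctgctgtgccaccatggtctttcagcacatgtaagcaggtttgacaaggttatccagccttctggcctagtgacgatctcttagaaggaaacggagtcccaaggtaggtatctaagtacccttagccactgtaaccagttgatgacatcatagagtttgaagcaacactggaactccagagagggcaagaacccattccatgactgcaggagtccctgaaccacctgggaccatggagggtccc
AGATAA was found 1 time in the Alas2 window, 1 time in the second Hk1 window and 0 times in the first. Of all 33465 RefSeq windows of this length, 3877 (11.6%) held it. In the Alas2 window the listed start came directly after AG, the letters that end an intron, and an ATG began at base 16 from that start. AG stood before the listed start in 2608 of the 33465 windows (7.79%). Whether that start lies inside the gene, at a later exon, was not tested. The assembled models use another build, so none of their first exons was placed on these windows.

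Alas2, which encodes the first enzyme of heme synthesis in red cell precursors, had 3 members on chromosome X (plus strand, positions as the files give them). The first spanned 19737364 to 19754983 with 9 exons and 1306 bp of exon sequence. The second had the same ends with 8 exons and 1110 bp, and lacked the exon of 196 bases that followed the first exon in the other. The other member began further downstream at 19741628, ended at the same position and had 9 exons and 1312 bp. It differed from the first in its first exon alone, which was 51 bases long in place of 45, and the 8 exons that followed were the same. A new-junction model of 9 exons and 1261 bp, in which the exon of 123 bases was cut to 78, was found in one assembly only.

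Hk1, which encodes hexokinase 1, the enzyme that starts glucose breakdown in red cells and many other cells, had 3 members on chromosome 20 (minus strand). Members that began at 31721626 and 31723818 shared 6 introns and ended together at 31675604, with 8 exons each and 1603 and 1315 bp. Another model with this end began at 31709897 and was found in one assembly only. The remaining Hk1 member lay further downstream, from 31669435 to 31652814, with 9 exons and 2256 bp. No member covered both stretches, and whether they belong to the same messenger RNA was not tested.

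Slc4a1, which encodes band 3, the anion exchanger of the red cell membrane, had 2 members on chromosome 10 (minus strand). The member from 86026503 to 86020988 had 11 exons and 1715 bp. A model contained in a reference transcript had the same ends and 11 exons but 1712 bp, because its sixth exon was 207 bases long in place of 210. Both were found in both assemblies. The other member began at 86032693, had 5 exons and 616 bp and ended upstream of the first.

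**Figure D1:**
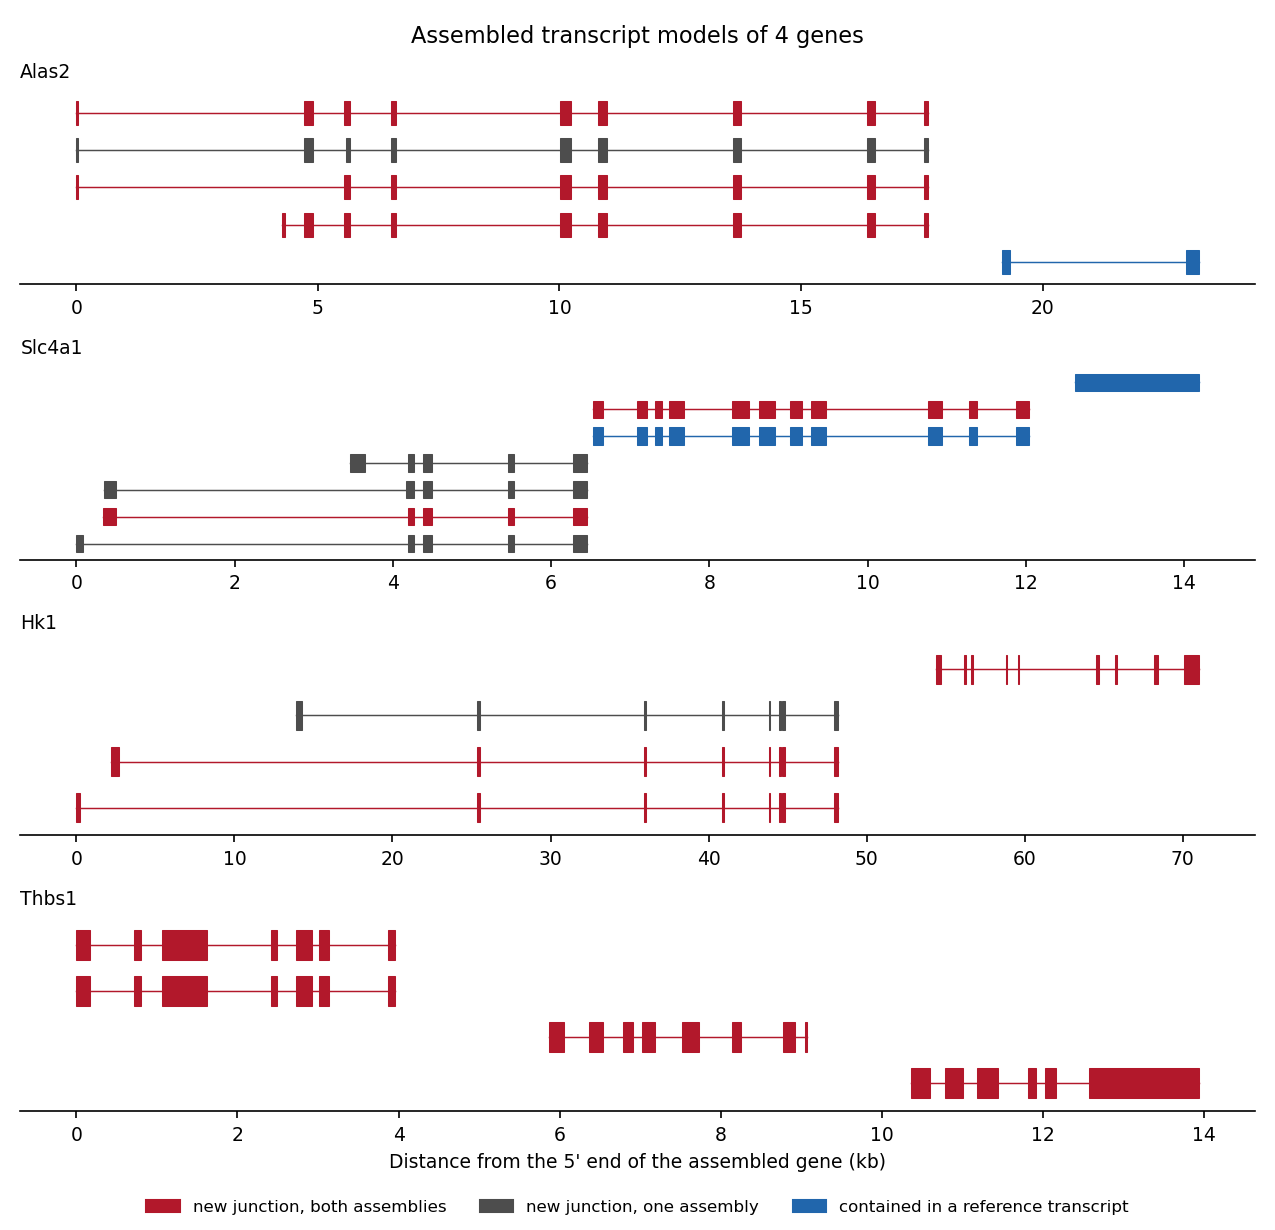
Assembled models of Alas2, Slc4a1, Hk1 and Thbs1 drawn to scale from the 5′ end of each assembled gene (horizontal axis, kb); boxes are exons, lines are introns, and colour gives the class. The 3 Alas2 members end together while 1 starts from a first exon further downstream, and the 4 Thbs1 members lie in 3 separate stretches.

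Thbs1, which encodes thrombospondin 1, a secreted protein of platelets and the extracellular matrix, had 4 members, more than any other gene. On chromosome 3 (plus strand) 2 of them ran from 103977728 to 103981685 with 7 exons and 1326 and 1323 bp, and differed by 3 bases at 1 acceptor. The others ran from 103983600 to 103986803 (8 exons, 1147 bp) and from 103988088 to 103991659 (6 exons, 2340 bp). Chd4, which encodes a chromatin remodeling enzyme, had 3 members on chromosome 4. They had 18 exons with 2967 bp, 18 exons with 2907 bp and 22 exons with 3158 bp, and the member of 22 exons began after the others ended. Mical2, an enzyme that oxidizes actin, had 3 members of 3, 16 and 17 exons on chromosome 1. Of the 529 genes, 495 had 1 member, 29 had 2, 4 had 3 and 1 had 4.

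Erythroid genes held 9 of the members. Of 9 erythroid genes found, 7 had a new-junction transcript and 4 had a member, namely Alas2, Slc4a1, Epb41 and Ank1. That is 57.1% of the 7 genes, beside 10.1% (529 of 5254) over all genes with a new-junction transcript. A gene with more such transcripts has more chances to hold a member. Counted over transcripts, 9 of the 29 new-junction transcripts of these genes were members, beside 5.76% (569 of 9873) over all. The list was chosen with earlier results of these data known, and no test was made. Epb41, which encodes protein 4.1 of the membrane skeleton, had 2 members of 19 exons with 5006 and 5399 bp and the same ends, 142553360 and 142705852 on chromosome 5. Ank1, which encodes ankyrin 1 and ties band 3 to that skeleton, had a member of 31 exons and 3934 bp and one of 3 exons and 304 bp on chromosome 16.

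Of 20 bone matrix, osteoblast and osteocyte genes found, 9 had a new-junction transcript and 1, Fn1, had a member. Of 7 osteoclast genes 3 had a new-junction transcript and 1, Csf1r, had a member. These are 11.1% and 33.3% of the genes with a new-junction transcript, beside 10.1% over all genes, and each rests on 1 gene. Csf1r encodes the receptor for the growth factor that osteoclast precursors need, and its member on chromosome 18 had 21 exons and 3757 bp. Phospho1, a phosphatase that helps start mineralization, was not on the list and was named for the size of its change. Its member on chromosome 10 (79529848 to 79537361) had 3 exons and 1791 bp, and 1 acceptor lay 118 bases downstream of that in the reference model, which also had 3 exons.

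Fn1, which encodes fibronectin, is a textbook case of alternative splicing, with optional exons EIIIA and EIIIB and a variable region. The member on chromosome 9 (70607230 to 70675717, minus strand) had 44 exons and 7717 bp. Its nearest reference model had 46 exons and 8336 bp. Against that model the member skipped exons of 270 and 273 bases and shifted 1 acceptor by 75 bases, all multiples of 3. Only 1 of its introns was absent from every full-chain and contained model of the gene. The skipped exons were not matched by sequence to EIIIA or EIIIB.

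Of the remaining lists, neutrophil and myeloid genes had a member in 1 of 5 genes with a new-junction transcript (Cd177, a neutrophil surface protein, 21 exons, 3307 bp). Skeletal muscle genes had one in 2 of 9, Tnni2, fast troponin I (7 exons, 653 bp), and Myl1, a myosin light chain (7 exons, 1220 bp). Splicing factors and hnRNPs had one in 3 of 19. These were Srsf2 and Srsf10, which bind exons and guide splice site choice, with 4 exons and 1257 bp and with 5 exons and 803 bp, and Hnrnpk, an RNA-binding protein, with 17 exons and 2813 bp. Full-chain or contained models of Srsf2 held all introns of its member. Genes whose symbols begin with Nduf, Uqcr, Cox or Atp5, a set of respiratory chain and ATP synthase subunits together with their assembly factors, had one in 1 of 9. This was Atp5mc3, a subunit of the ATP synthase membrane ring, whose donor lay 10 bases upstream of the reference donor. Textbook alternative splicing genes had one in 1 of 11 (Fn1). B lymphoid genes had one in 0 of 2 and ribosomal protein genes in 0 of 5. Only 5 of the study's target genes were looked up, Mfap5, Camk2a, Rgs4, Diras2 and Mapk4. Of these 3 were found by symbol, and 0 had a new-junction transcript.

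**Figure D2:**
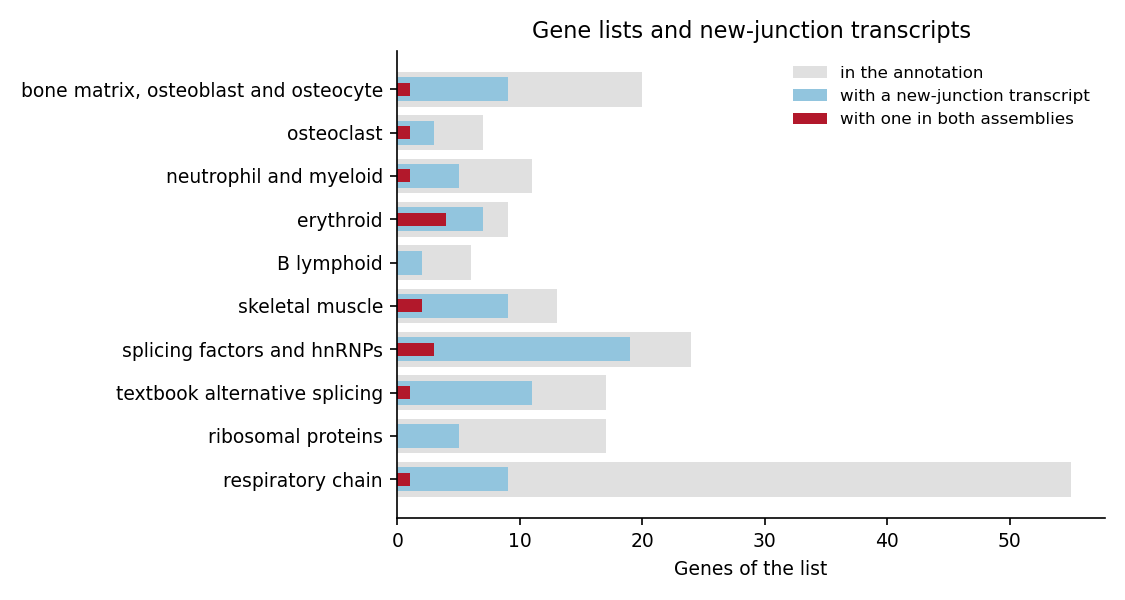
Genes of each list (horizontal axis, number of genes) that were found in the annotation, that had a new-junction transcript and that had one in both assemblies. Erythroid genes reached 4 of 7, and the respiratory chain list, which includes assembly factors, had 55 genes found and 1 with a member.

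Members were longer than the new-junction transcripts of one assembly. Their exon length had a median of 1303 bp (quartiles 651 and 2405) against 725 bp (412 and 1407), and 32.7% against 15.4% reached 2000 bp. The number of exons had a median of 5 in both groups, with quartiles of 3 and 10 for members and of 3 and 8 for the others. Within genes that had a member, the one-assembly transcripts had a median of 7 exons and 1074 bp. These 564 transcripts came from 268 of the 529 genes, so this is not a comparison within the same genes. The share found in both assemblies was 3.04% (95% interval 2.47 to 3.69) of transcripts under 500 bp and 11.6% (9.88 to 13.5) of those from 2000 to under 4000 bp. It was 5.63% (4.54 to 6.89) at 2 exons and 8.86% (6.1 to 12.3) at 21 exons or more. These and later intervals are exact binomial intervals and cover counting error only, and transcripts of 1 gene share exons and are not independent.

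**Figure D3:**
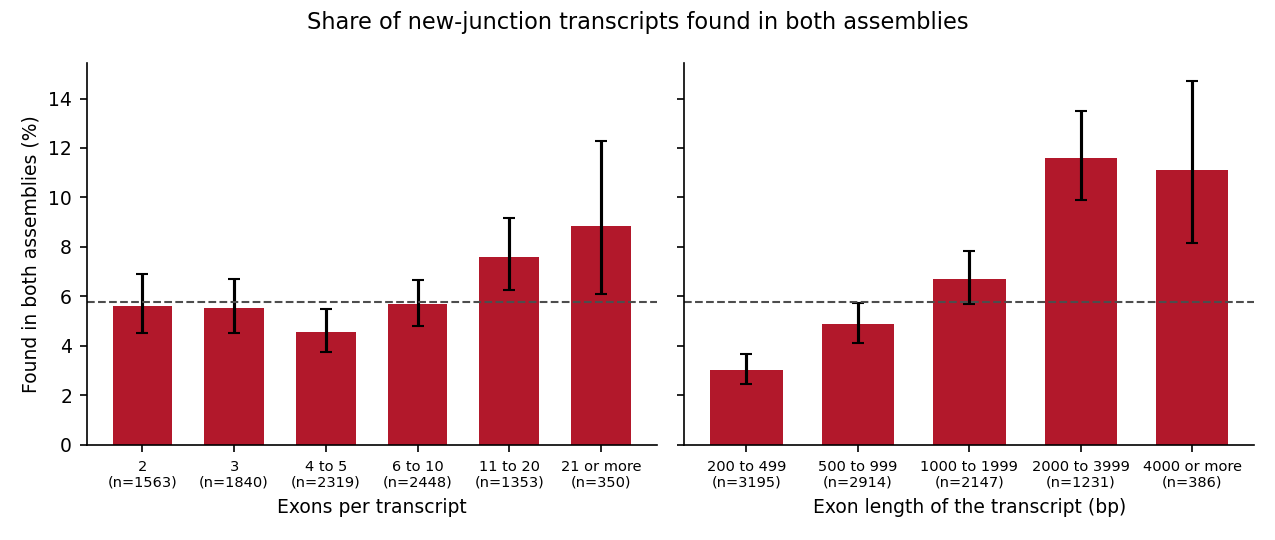
Share of new-junction transcripts found in both assemblies (vertical axis, %) by number of exons and by exon length; error bars are exact 95% binomial intervals and the dashed line is the share over all (5.76%). The share was 3.04% in the shortest class, 11.6% from 2000 bp and 11.1% from 4000 bp.

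The member with the most exons was a gene named only by a prediction number, rCG_55135 on chromosome 5, with 57 exons and 8451 bp and 1 changed intron at its 5′ end. The reference model also had 57 exons. Col4a1, a collagen chain of basement membranes, had a member of 52 exons and 6320 bp on chromosome 16. Sptbn1, a spectrin chain under the cell membrane, had one of 35 exons and 8575 bp on chromosome 14. All introns of the Sptbn1 member occurred in full-chain or contained models of the gene. The same held for 10 of the 390 members (2.56%) in genes with an assembled reference intron, Sptbn1 and Srsf2 among them. The longest member was rCG_59523 on chromosome 7, with 32 exons and 14891 bp. Names that are prediction numbers made up 34.3% of members and 33.6% of one-assembly transcripts.

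Across chromosomes the share in both assemblies ran from 3.21% on chromosome 17 (8 of 249, 1.4 to 6.23) to 8.33% on chromosome 20 (22 of 264, 5.3 to 12.3), and these intervals overlapped. For comparison, 50.2% of the transcripts that matched a full reference intron chain were in both assemblies, and 4.85% of those contained in a reference transcript.

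What changed in a member could be read where the nearest reference transcript was itself assembled with its full intron chain, which held for 82 members and 987 one-assembly transcripts. Exactly 1 intron lay outside that model in 69 of the 82 (84.1%, 74.4 to 91.3), against 57.6% (54.5 to 60.8) of the others. With all assembled reference introns of the gene in place of that model the shares were lower and closer, at 42.8% (167 of 390, 37.9 to 47.9) and 32.7% (2626 of 8019, 31.7 to 33.8). In 2 of the 82 members and 163 of the 987 others (16.5%) no intron lay outside the nearest model, so these carried no new junction against it. A shifted acceptor, with no whole reference exon lost, was present in 30 members (36.6%, 26.2 to 48), against 19.7% (17.2 to 22.3). A shifted donor was present in 19 (23.2%, 14.6 to 33.8), against 10.6% (8.78 to 12.7). Exons were skipped between unmoved sites in 7 (8.54%), against 12.5%, with overlapping intervals, and in 4.09% of members when any full-chain model of the gene was used. In another 3 members (3.66%, 0.761 to 10.3) and 8 of the others (0.811%, 0.351 to 1.59) 1 intron both dropped an internal reference exon and ended at a site that the model lacks. An added exon was present in 0 of 82, which allows up to 4.4%, and in 66 of the others (6.69%). The reference model was itself in both assemblies for 68.3% of the members and 39.5% of the others, and the part of this difference in the results was not tested.

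**Figure D4:**
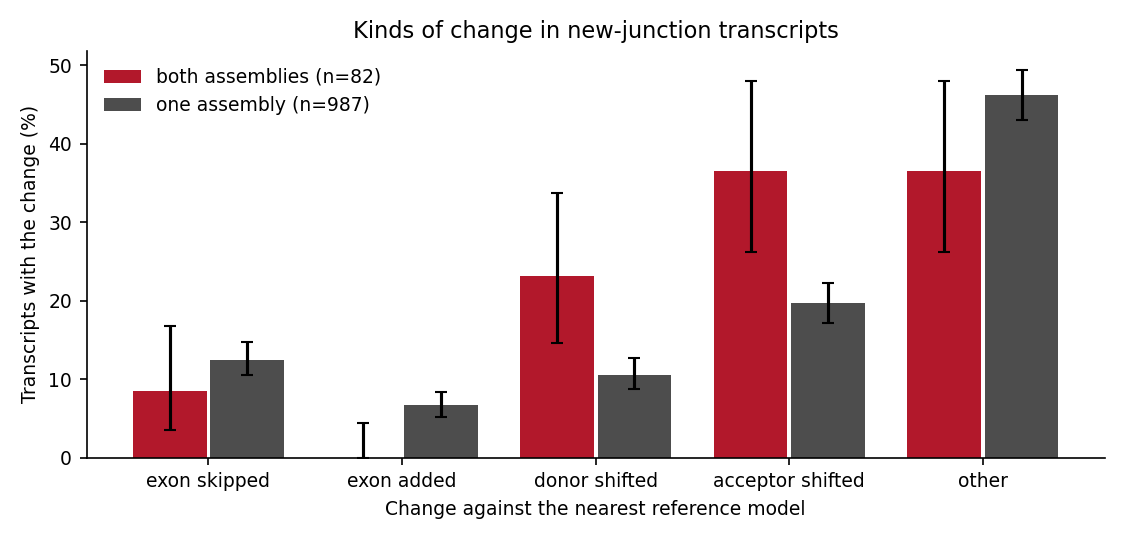
Share of transcripts with each kind of change against the nearest reference model (vertical axis, %) for 82 members and 987 one-assembly transcripts; error bars are exact 95% binomial intervals. Shifted acceptors were present in 30 of 82 members, the remaining kinds of change (other) also in 30, and an added exon in 0 of 82.

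Besides Fn1, the longest skipped exons were of 129 bases in rCG_28025 and 120 bases in Acin1, a protein of the splicing-dependent exon junction complex (18 exons against 19). Of the 8 exons skipped in members, 7 had a length that is a multiple of 3, beside 80 of 127 (63%) in the others. The 8 include the Fn1 exons of 270 and 273 bases. The introns that skip those exons also occur in other assembled reference models of Fn1, so they are not new to the gene. Against the nearest reference model, the largest donor shifts in members were of 225 bases in rCG_60710, 136 bases in Rbm38, an RNA-binding protein, and 119 bases in rCG_59188. The largest acceptor shifts were those of 118 bases in Phospho1 and 75 bases in Fn1, followed by 62 bases in rCG_29421. In Rbm42 (9 exons against 10) and Cdc25b (15 exons against 16), both chosen after their values were seen, 1 intron dropped an internal exon and also moved a site. Rbm42 is an RNA-binding protein, and Cdc25b is a phosphatase that lets cells enter mitosis.

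The single changed intron was the first in 33 of the 69 members, internal in 21, the last in 12 and the only one in 3. In 23 of the 69 the change was neither an exon skipped between unmoved sites nor a site shift of up to 300 bases. Of these, 9 had a first or only intron that kept an acceptor of the reference model, with a donor more than 300 bases from the reference donor. That acceptor need not be the first of the reference model. Another 5 joined a reference donor to a last exon whose acceptor was more than 300 bases away. A further 7 kept neither site, and the rest were Rbm42 and Cdc25b. Gnaq, a G protein subunit, had such a last exon, with 4 exons and 725 bp against 7 exons and 3336 bp in the reference model. Cxcl12, a chemokine that keeps blood stem cells in the marrow, also had one, with 4 exons and 866 bp against 4 exons and 2878 bp, and was chosen after its values were seen. Tmcc2 differed at its first exon and had 4 exons against 5. Kcnab2, a potassium channel subunit, had another first exon and also skipped an exon of 42 bases.

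A shift of 3 bases was the most frequent size of splice site change. Measured against all reference introns of the gene that were assembled, members had 70 shifts of up to 300 bases, and 30 of them (42.9%, 31.1 to 55.3) were of 3 bases. One-assembly transcripts had 679 shifts, 185 of them (27.2%, 23.9 to 30.8) of 3 bases. All 30 in members were at acceptors, as were 178 of the 185. Of the 30, 16 lay upstream and lengthened the exon by 3 bases and 14 lay downstream. The files hold no coding regions, and some of these acceptors ended first introns, so whether a codon was added or lost was not examined. Sizes that are multiples of 3 made up 67.1% (54.9 to 77.9) in members and 59.6% (55.8 to 63.4) in the others, and these intervals overlapped.

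**Figure D5:**
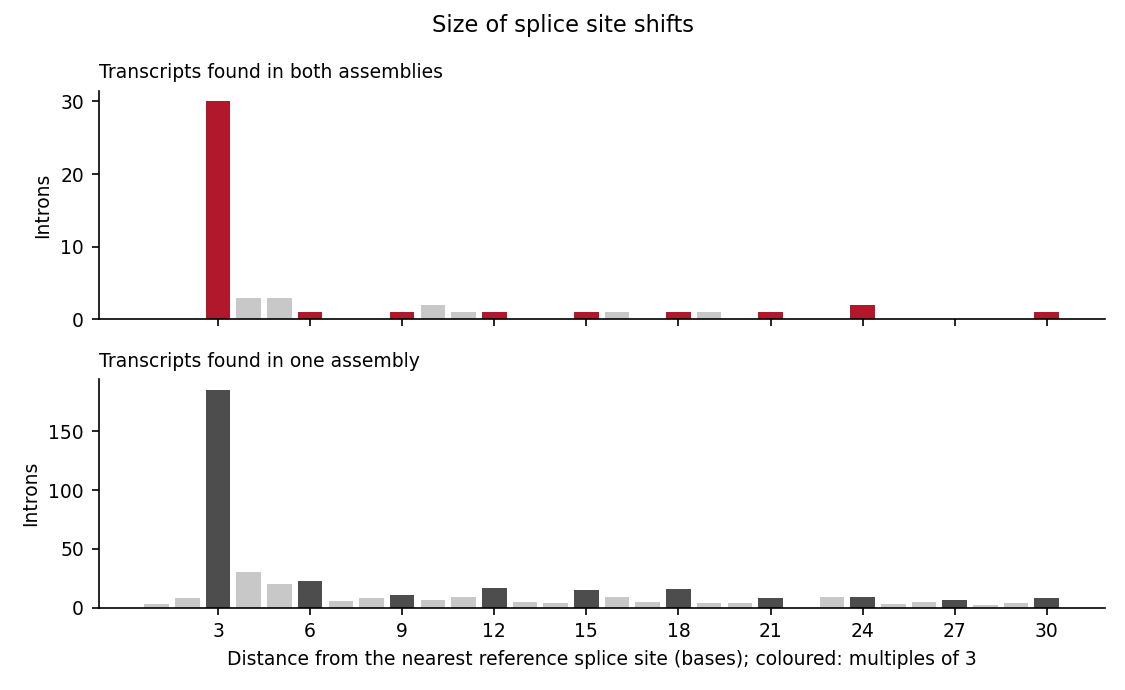
Number of introns (vertical axis) by distance of the shifted splice site from the nearest reference site (horizontal axis, bases, up to 30), for members above and one-assembly transcripts below; multiples of 3 are coloured. The bar at 3 bases holds 30 introns in members and 185 in the others, and the next bars in members hold 3.

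The 3-base acceptors lay in 28 genes. The first by position were all on chromosome 1. Epn1, an endocytic adaptor, had a member of 12 exons and 2243 bp whose acceptor at the end of the intron 68374054 to 68374183 lay 3 bases upstream. Vasp, which promotes actin filament growth, had one of 13 exons and 2476 bp with its acceptor 3 bases upstream, and rCG_54432 one of 5 exons and 779 bp, also upstream. Cic, a transcriptional repressor, had 3 such acceptors in 1 member of 20 exons and 5558 bp, with 1 downstream and the other two upstream. Nr1h2, a nuclear receptor for oxysterols, had a member of 4 exons and 620 bp with its acceptor 3 bases upstream. Spi1, the transcription factor that directs myeloid and osteoclast precursors, had a member of 5 exons and 1642 bp with an acceptor 3 bases upstream, and was chosen after its values were seen. The letters at these acceptors were not examined.

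Members of 1 gene formed 47 pairs, of which 24 overlapped and 23 did not. In 12 of the 24 the members differed at 1 splice site of 1 intron. In 5 of these 12 the difference was 3 bases at an acceptor, in Thbs1, Nolc1, Fermt3, Cst7 and Srrm1, the last 2 chosen after their values were seen. Fermt3 encodes kindlin-3, which activates integrins in blood cells, and its members had 15 exons each and 2470 and 2473 bp. Nolc1, a nucleolar protein, had members of 13 exons and 3432 and 3435 bp. Both forms of each of these acceptors were recorded in both assemblies.

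Single introns were in both assemblies more often than whole new-junction transcripts, a direction that the definitions favour. An intron counted through any transcript of its gene, while a transcript had to be recorded as a whole. For one-assembly transcripts the assembly was inferred from the runs of transcript numbers. Of 23822 introns of new-junction transcripts that were absent from the full-chain and contained models of their gene, 10015 (42%, 41.4 to 42.7) were seen in both assemblies. Those of members were in both by the choice of members, and among the new introns of one-assembly transcripts 8220 of 22027 (37.3%) were. For reference introns it was 58.8% (58.5 to 59.2). Among one-assembly transcripts, 2033 of 9304 (21.9%) had every intron in both assemblies, and 30 (0.322%) had introns that were all part of those of a member. The share seen in both was 10.6% (29 of 274) where both sites of the new intron were known in another pairing, 15.1% (276 of 1832) where 1 was known and 41.2% (6974 of 16935) where neither was. It was 57.2% (2736 of 4781) in genes with no assembled reference intron. These counts include introns of members, which were in both by the choice of members. Members supplied 11 of the 274, 117 of the 1832, 1084 of the 16935 and 1330 of the 4781. Shares without them were not computed, so the contrast between these shares is not free of that choice. An intron counted as new here can belong to a reference transcript that was not assembled, and the part of that in these shares was not tested.

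Genes with no assembled reference intron were frequent among members. For 179 members (31.5%, 27.7 to 35.5) the gene had no full-chain or contained model with an intron, against 13.8% (13.1 to 14.5) of the one-assembly transcripts. In Alas2, Thbs1, Chd4 and Col4a1 every intron of the members lay outside the assembled full-chain and contained models, with 51 such introns in the Col4a1 member of 52 exons. Alas2 did have a contained model of 2 exons, found in both assemblies, so its members are not among the 179. A full-chain model in both assemblies was present for the gene of 24.1% (20.6 to 27.8) of members against 11.2% (10.6 to 11.9). None of the 529 genes was on the list of 1507 new genes, and 268 of them (50.7%) also had a new-junction transcript in one assembly only.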

How the data were processed

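Per the submitters' processing notes, the authors used FastQC, HISAT2, StringTie and featureCounts, with rn4 listed as a build; versions, parameters and the order of the steps are not given in the sources used here. The deposited annotation holds positions and attributes of transcript models, and the deposited gene list the positions of new genes. Neither file names its build, and the names of its sequences and predicted genes (rCG) look like those of another rat assembly than rn4. The build of the positions is therefore not known here, and they are given as deposited. The 21 sequences were assigned to chromosomes by the genes on them, and names were matched to current or unambiguous older RefSeq symbols (245 and 103 of 569 members, 221 unmatched). The assembly of a model found in one only was inferred from which of the 2 runs of transcript numbers it belongs to. The shares of introns seen in both assemblies rest on this inference.

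Members were the class j transcripts recorded in both assemblies, compared with those recorded in one. Introns were compared with those of the nearest reference transcript where its full chain was assembled, or with all full-chain and contained models of the gene. A site shift was a change of up to 300 bases at 1 end of an intron that dropped no whole reference exon and left overlapping exons. The comparison was tested on 500 simulated models, of which 500 were recovered. Their changes were all at internal exons, with shifts far below the limit of 300 bases. Other first or last exons and introns that kept neither site were not simulated, so recovery of those changes is unknown. Values are descriptions, since transcripts are not replicates. Intervals were exact 95% binomial intervals (scipy 1.17.1, Python 3.11.15). Plots used matplotlib 3.10.9.

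The members and gene lists were chosen with earlier results of these data known. Genes named were the 10 with the most members, the 5 members with the most exons and the 5 longest, members of listed genes, the 3 largest changes of each kind and the first 5 members by position with a 3-base shift; not all are described. Alternatives changed the genes, lengths, reference models and tolerances used. The planned comparison of OVX with SHAM was not made, because the files hold no value per sample.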

Additional observations from a re-analysis of the deposited data

How the results depend on the processing

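Of the share found in both assemblies (5.76%), restriction to an exon length of at least 500 bp gave 7.07% and counting over genes gave 10.1%. The one-assembly median of 5 exons was 7 within genes with a member and 4 with 1 transcript per gene. With at least 4 exons the median exon length was 1820 bp in members and 1059 bp in the others, so members stayed longer there. One-assembly transcripts of genes with a member had a median of 1074 bp. They came from 268 of the 529 genes, and no median of members was taken over those 268. Length within the same genes was therefore not compared. Exactly 1 changed intron held for 42.8% of members when all assembled reference introns of the gene were used in place of the nearest model (84.1%), a setting with 390 members in place of 82. The share with a skipped exon was 4.09% against any full-chain model of the gene, in place of 8.54%. In members, multiples of 3 made up 78% of shifts of up to 30 bases and 96.7% at internal introns, against 67.1%. The share was 62.7% when shifts that also dropped an exon or left no overlapping exon were counted, an alternative chosen after seeing the data. These settings are given for members only, so they draw no contrast with one-assembly transcripts. The number of internal shifts is not given. New introns seen in both assemblies were 43% with a tolerance of 3 bases and 36.7% against the nearest full-chain model only, against 42%. The other alternatives left their value within its counting interval or, for counts of genes, by less than 1.5 times.

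No paired analysis was possible because the labels cover 1 sample per group and the files hold no value per sample. For the same reason no replicate was left out. Depth is unknown, and its part in which transcripts were in both assemblies was not tested.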
